A study of Mus musculus with 6 samples.

Results

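The genes described are 8 regulators through which the circadian clock reaches its target genes: the PAR bZIP activators Dbp, Tef and Hlf, the bZIP repressor Nfil3, the DEC repressors Bhlhe40 and Bhlhe41, the nuclear receptor Rora and the repressor Ciart. They were taken as every array probe annotated to one of these symbols, which gave 11 of the 55676 probes on the array. Probes had to give a raw signal over the 40th percentile of all probes on 3 or more of the 6 arrays, and 10 of the 11 probes, standing for 7 of the 8 genes, passed. The 7 genes are among 16143 named genes past the filter. All 10 probes were over that level on all 6 arrays, so none passed through 1 group alone. The list was chosen by the values of these genes on each array, their correlation with Dbp and their knockout minus wild type differences, so these are given as a description and no test of the members is read from them.

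RNA was measured on 1-colour Agilent arrays in cochleae of female mice aged 7 months, 3 wild-type pools, Fabp7 (+/+), and 3 knockout pools, Fabp7 (-/-). Fabp7 is the brain-type fatty acid binding protein, a carrier of fatty acids in glia whose mRNA is known to cycle over the day in mouse brain. Each pool held 4 cochleae of 2 mice, with the otic capsule bone included and vestibular tissue left out, so a group stands for 6 mice and each value is already an average over animals. The strain, how the knockout was made, and the time of day at which tissue was taken were not stated in the labels. The labels name no agent for either group.

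In the mammalian clock, CLOCK and BMAL1 (encoded by Clock, with its paralog Npas2, and by Arntl) switch on genes that carry E-boxes, among them the Per and Cry repressors, the REV-ERB receptors (Nr1d1, Nr1d2) and Dbp. Dbp, Tef and Hlf then activate genes through D-boxes, the sites at which Nfil3 represses, while Rora activates and the REV-ERBs repress through ROR elements, Arntl and Nfil3 being known targets of that arm. In mouse tissues Dbp mRNA therefore peaks in the phase opposite to Arntl and Nfil3. The mouse cochlea holds a clock of its own, and mice that lack Dbp, Tef and Hlf together are prone to sound-induced seizures.

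Start-site windows of the members are shown first, searched for the E-box, the element through which CLOCK and BMAL1 act. RefSeq windows (GRCm38.p6) from 250 bases before to 50 bases after an annotated start were found for 7 of the 8 genes, with 2 windows for Tef, and Bhlhe40 had none. The E-box CACGTG was counted once for both strands, as it reads the same on each. It stood in 7.15% of 32851 windows of this length, and 3 or more copies stood in 0.0883%. Capitals mark each E-box. The Ciart window held 3 E-boxes, whose first bases lay 116, 58 and 44 bases before the start, the Bhlhe41 window 1 at 153 bases, and the Tef windows 1 each, at 127 and 138 bases. The Dbp window held none and is shown beside them because Dbp varied most over the arrays among the 7 members past the filter.
Ciart, chr3:95882179-95882478, minus strand: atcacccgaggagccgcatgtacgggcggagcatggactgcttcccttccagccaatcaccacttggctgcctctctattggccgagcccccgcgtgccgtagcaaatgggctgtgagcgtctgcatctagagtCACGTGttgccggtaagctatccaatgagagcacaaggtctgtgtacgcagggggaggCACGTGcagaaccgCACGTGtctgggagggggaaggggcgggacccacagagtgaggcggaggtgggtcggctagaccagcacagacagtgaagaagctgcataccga
Bhlhe41, chr6:145865371-145865670, minus strand: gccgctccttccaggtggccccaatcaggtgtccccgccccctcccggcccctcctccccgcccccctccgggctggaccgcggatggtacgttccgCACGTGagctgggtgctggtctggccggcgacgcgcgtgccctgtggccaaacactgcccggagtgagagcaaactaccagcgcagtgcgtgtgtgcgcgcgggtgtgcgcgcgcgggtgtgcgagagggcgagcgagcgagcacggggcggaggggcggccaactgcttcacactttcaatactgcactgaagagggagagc
Tef, first window, chr15:81802423-81802722, plus strand: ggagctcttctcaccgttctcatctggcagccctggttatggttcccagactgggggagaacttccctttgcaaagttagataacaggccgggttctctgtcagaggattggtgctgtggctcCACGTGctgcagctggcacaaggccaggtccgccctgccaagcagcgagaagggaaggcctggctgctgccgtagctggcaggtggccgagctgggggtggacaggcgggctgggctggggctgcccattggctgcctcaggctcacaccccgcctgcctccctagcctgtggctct
Tef, second window, chr15:81811164-81811463, plus strand: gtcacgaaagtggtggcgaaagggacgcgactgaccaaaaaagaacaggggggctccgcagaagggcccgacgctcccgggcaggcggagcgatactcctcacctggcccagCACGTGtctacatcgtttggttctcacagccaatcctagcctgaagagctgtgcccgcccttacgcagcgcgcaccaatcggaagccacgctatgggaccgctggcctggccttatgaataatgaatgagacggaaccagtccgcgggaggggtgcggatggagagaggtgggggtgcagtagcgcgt
Dbp, chr7:45704997-45705296, plus strand: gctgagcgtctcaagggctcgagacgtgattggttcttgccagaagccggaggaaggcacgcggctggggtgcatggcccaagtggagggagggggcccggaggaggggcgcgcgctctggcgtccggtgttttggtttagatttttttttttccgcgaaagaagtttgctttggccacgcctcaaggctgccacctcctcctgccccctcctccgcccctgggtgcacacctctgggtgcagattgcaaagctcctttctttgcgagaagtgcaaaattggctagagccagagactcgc

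The windows of Hlf, Nfil3 and Rora held no CACGTG. None of the 8 windows held the variant E-box CACGTT, which cannot share its 6 bases with CACGTG (4.68% of all windows), nor a D-box, searched as TTATGTAA and TTACGTAA on both strands (1.06%). None held a ROR element, the RORE, searched on both strands (0.435%). A match is a string of letters and not a measured binding site, and a window without one says only that those letters are not in it.

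The arrays were alike in brightness, with a 75th percentile of raw signal between 581.06 and 677, and correlated with each other at 0.988 to 0.994 over the 33484 probes past the filter. Values are log2 signals relative to the array's own 75th percentile, which is 0 on this scale, and probes of different genes are not compared with each other. Fabp7, the deleted gene, lay at 1.98, 1.22 and 1.48 on the wild-type arrays and at −5.80, −7.37 and −7.41 on the knockout arrays, as each label has it. Markers of hair cells passed the filter in 7 of 8 genes, of the stria vascularis in 6 of 7, of spiral ganglion neurons in 7 of 7 and of adipocytes in 5 of 6. Skeletal muscle genes passed in 7 of 10, with Myh1, Myh2 and Mylpf below the filter, and knockout array 2 stood apart in them, with Acta1 at 1.09 against −3.84 to −0.52 on the others and Myh4 at 0.88 against −4.76 to −3.10. Their summed signal, in multiples of each array's 75th percentile, was 60.2 to 73.1 in wild type and 67.3 to 89.0 in knockout, most of it from Pvalb, which neurons also express. Wild-type array 2 stood apart in the 7 bone cell genes, with a mean centred signal of 0.30 against −0.09 to 0.00, and in hair cell genes, at −0.37 against −0.03 to 0.17. The summed signal was 91.2 to 118 in wild type and 95.9 to 98.2 in knockout for bone cell genes, and 24.3 to 30.2 against 31.3 to 36.4 for hair cell genes. The hair cell sums did not overlap, which rested on Ocm, the brightest of the 7. Without it, a repeat chosen after the data were seen, the sums were 9.45 to 12.0 in wild type and up to 13.0 in knockout, and knockout pool 2 fell below wild-type pools 1 and 3. In whole-tissue RNA, fewer cells of a type and less RNA per cell cannot be told apart.

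Dbp, the D-box activator that lends the PAR bZIP group its best known rhythm, varied most among the 7 genes. Its brightest probe read 5.02, 3.97 and 4.67 in wild type (mean 4.55 ± 0.53, SD, n = 3) and 5.23, 5.68 and 5.78 in knockout (5.57 ± 0.29, SD, n = 3). All knockout pools lay above all wild-type pools, with wild-type pool 2 lowest and knockout pools 2 and 3 highest. Knockout minus wild type was 1.01 ± 0.29 (SE), or 2.02-fold. The gap between the closest pools of the groups, wild-type 1 and knockout 1, was 0.21, which is smaller than the range of 1.05 among the wild-type pools. The second Dbp probe read 4.78, 3.73 and 4.46 against 4.97, 5.43 and 5.55, a difference of 0.99 ± 0.30 (SE) in the same order of pools. The full range of Dbp, 1.81 or 3.51-fold, exceeded that of 98.0% of all probes past the filter, whose median range was 0.41.

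Tef, the thyrotroph embryonic factor and another D-box activator, nearly followed the order of Dbp, over a narrower range. It read 5.53, 5.09 and 5.33 in wild type (5.32 ± 0.22, SD, n = 3) and 5.52, 5.84 and 5.90 in knockout (5.75 ± 0.20, SD, n = 3). Wild-type pool 1 and knockout pool 1 touched, 0.02 apart in the direction against the group means, and the other pools lay apart. The difference was 0.43 ± 0.15 (SE), or 1.35-fold. Across the 6 pools Tef moved by 0.44 log2 units for each unit of Dbp.

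Hlf, the third activator of this kind, did not separate the groups. It read 2.78, 2.17 and 2.53 in wild type (2.50 ± 0.31, SD, n = 3) and 2.53, 2.83 and 2.57 in knockout (2.65 ± 0.16, SD, n = 3), a difference of 0.15 ± 0.18 (SE) with a 95% interval from −0.28 to 0.58. The pools interleaved, with wild-type pool 1 second only to knockout pool 2. Without wild-type pool 2 the difference was −0.01.

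Nfil3, which represses at the D-box that the activators use, ran against Dbp. It read 0.27, 0.88 and 0.62 in wild type (0.59 ± 0.31, SD, n = 3) and 0.71, 0.30 and 0.10 in knockout (0.37 ± 0.31, SD, n = 3). The pool lowest for Dbp, wild-type 2, was the highest for Nfil3, and the pool highest for Dbp, knockout 3, was the lowest. The groups overlapped, with a difference of −0.22 ± 0.21 (SE) whose 95% interval ran from −0.74 to 0.31. Within each genotype Nfil3 was lower wherever Dbp was higher, in all 3 wild-type and all 3 knockout pools.

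**Figure D1:**
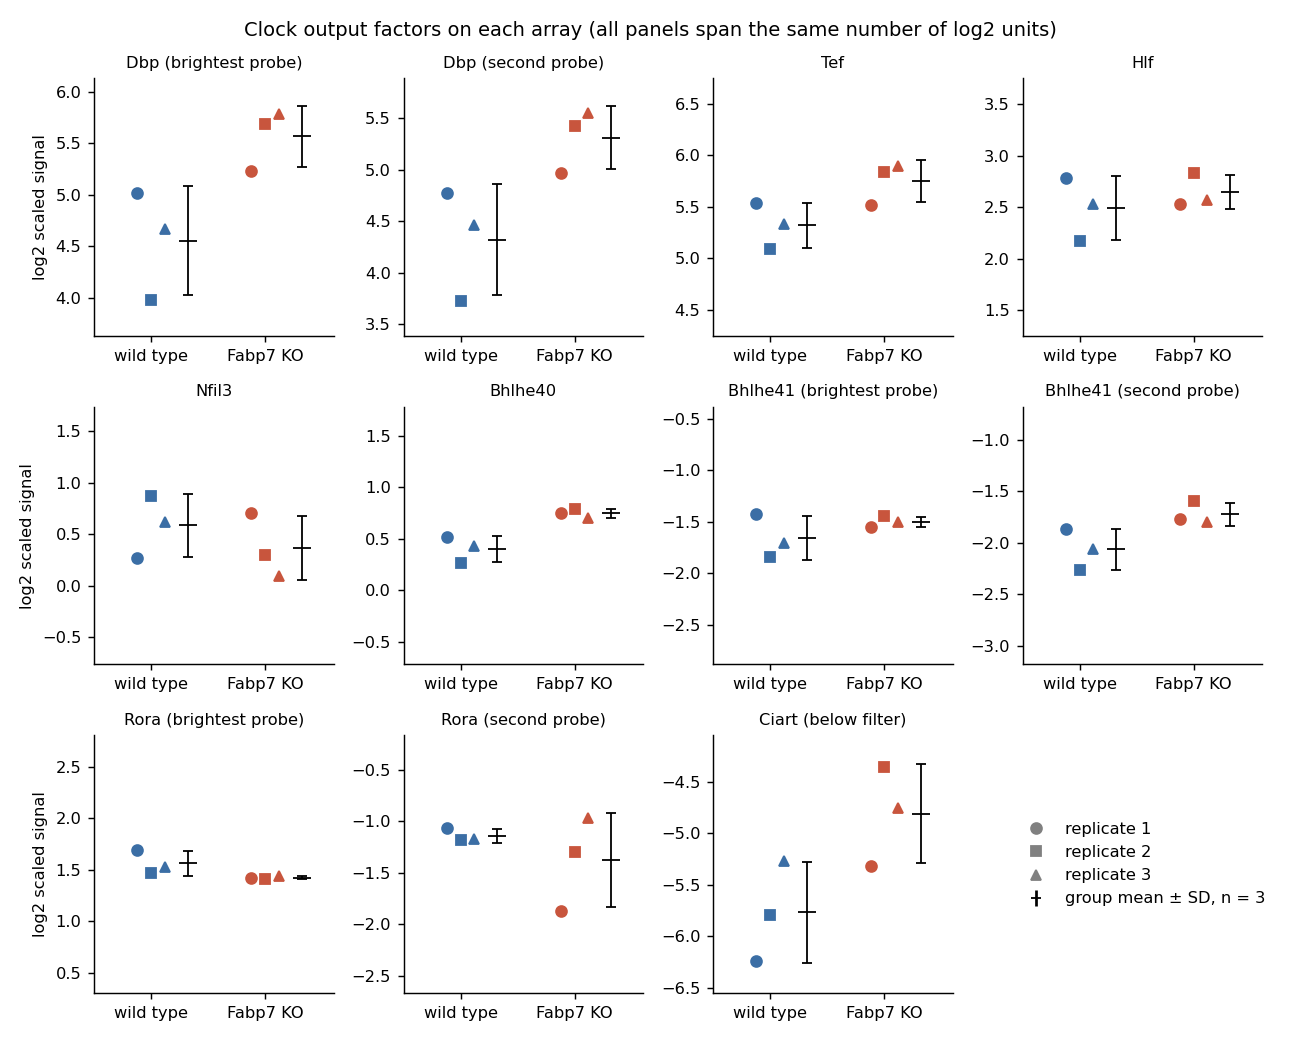
Log2 scaled signal (0 is the 75th percentile of the array) of the 11 member probes in each wild-type and Fabp7 knockout pool, with group means and SD (n = 3). All panels span the same height, so the width of the Dbp spread, 1.81 from lowest to highest pool, can be set against 0.28 for the brightest Rora probe.

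Bhlhe40, which encodes the E-box repressor DEC1, was higher in every knockout pool than in any wild-type pool. It read 0.52, 0.27 and 0.43 in wild type (0.41 ± 0.13, SD, n = 3) and 0.75, 0.79 and 0.70 in knockout (0.75 ± 0.04, SD, n = 3). The gap of 0.19 between the groups was wider than the knockout range of 0.09 and narrower than the wild-type range of 0.25. The difference was 0.34 ± 0.09 (SE), or 1.27-fold.

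Bhlhe41, which encodes the related repressor DEC2, gave different sizes by its probes. The brighter read −1.42, −1.84 and −1.71 in wild type (−1.66 ± 0.21, SD, n = 3) and −1.55, −1.45 and −1.50 in knockout (−1.50 ± 0.05, SD, n = 3), where wild-type pool 1 was the highest of all. Its difference was 0.16 ± 0.12 (SE) with a 95% interval from −0.14 to 0.45. The second probe read −1.87, −2.26 and −2.05 in wild type against −1.77, −1.60 and −1.80 in knockout, without overlap, at 0.34 ± 0.12 (SE). The probes carry the same RefSeq accession in the platform annotation, and both placed wild-type pool 2 lowest.

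Rora, which encodes an activator at ROR elements, went the other way by a small step. Its brightest probe read 1.69, 1.47 and 1.52 in wild type (1.56 ± 0.12, SD, n = 3) and 1.41, 1.41 and 1.44 in knockout (1.42 ± 0.01, SD, n = 3). All knockout pools lay below all wild-type pools, by a gap of 0.03, and the difference was −0.14 ± 0.08 (SE) with a 95% interval from −0.34 to 0.06. The second Rora probe, annotated to another transcript record, read −1.06, −1.18 and −1.18 against −1.87, −1.30 and −0.96, a difference of −0.24 ± 0.23 (SE) that was carried by knockout pool 1. The groups overlapped by that probe.

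Ciart, the CLOCK and BMAL1 repressor also called CHRONO, was the member just outside the filter. Its signals lay at percentiles 28.2, 34.5 and 38.5 of the wild-type arrays and 36.6, 45.2 and 42.3 of the knockout arrays, so the level was exceeded on 2 arrays only. It read −6.24, −5.79 and −5.26 in wild type against −5.32, −4.36 and −4.75 in knockout, values too dim for a difference to be stated. The member just inside was the second Bhlhe41 probe, whose lowest percentile on any array was 60.1. No member other than Ciart came near the level.

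Knockout minus wild type was fitted with limma over all 33484 probes. At an adjusted p under 0.05 (Benjamini-Hochberg over all probes) 0 probes were called, 0% of those tested, and the adjusted p of the 10 member probes ran from 0.718 to 0.888. The lowest adjusted p of any probe was 0.0661, that of Fabp7, the deleted gene, at −8.42. As even that gene was not called, a gene short of the threshold is not thereby shown to be unchanged. At an unadjusted p under 0.05, 5 of the 10 member probes were higher and 0 lower, beside 3.09% of all probes higher and 2.71% lower. The groups did not overlap in 4 member probes on the higher side and 1 on the lower, beside 7.86% and 4.42% of all probes. By the brightest probe of each gene, 5 of 7 differences lay above 0 and 2 below, with a median of 0.16. Of all probes 59.7% lay above 0, with a median of 0.03. The groups did not overlap in 2 member genes higher (Dbp, Bhlhe40) and 1 lower (Rora). These counts describe genes picked with this contrast in view.

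**Figure D2:**
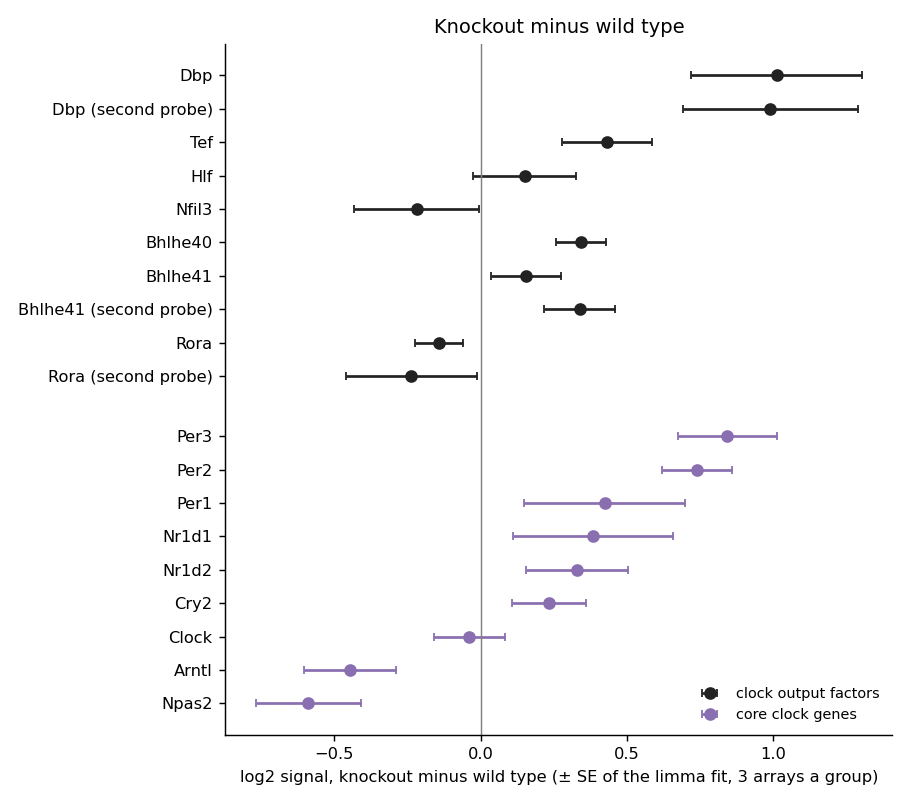
Knockout minus wild type difference of log2 signal for the 10 member probes past the filter and for the brightest probe of 9 core clock genes, with the SE of the limma fit (3 arrays a group). Dbp lies at 1.01 and Tef at 0.43, with Nfil3 at −0.22 and Rora at −0.14 on the other side of 0.

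Wild-type pool 2 was the lowest of the 6 pools in 5 of the 7 genes and the highest in Nfil3. Left out, it moved the differences to 0.72 for Dbp, 0.32 for Tef, 0.28 for Bhlhe40, 0.06 for Bhlhe41, −0.07 for Nfil3 and −0.19 for Rora. The same pool held the bone and hair cell values given above. Without wild-type pool 1, the wild-type pool highest for Dbp, the groups did not overlap in 6 of the 7 genes, 5 higher and 1 lower, beside 17.5% and 9.35% of all probes. Without knockout pool 2, which held the muscle values, the Dbp difference was 0.95 and the groups did not overlap in 2 genes higher and 1 lower, beside 11.7% and 6.54% of all probes.

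Some marker genes of other cell types also separated the groups. The 7 genes of spiral ganglion neurons did not, with a median knockout minus wild type of −0.04, 3 above 0 and 4 below. The 6 genes of the stria vascularis, the ion-pumping epithelium of the cochlear duct, had a median knockout minus wild type of 0.22, and the groups did not overlap in 3 higher and 1 lower. Their r with Dbp was 0.95 for the potassium channel gene Kcnq1, 0.90 for the sodium pump subunit gene Atp1b2, 0.89 for the chloride channel subunit gene Bsnd and 0.88 for the nuclear receptor gene Esrrb, and wild-type pool 2 was the lowest pool in each of these 4. These r values cover 4 of the 6 genes, picked after their values were seen, and leave out Kcnj10 and Slc12a2. Of the 6 differences, 5 lay above 0 and 1 below. The stria sum was 97.5 to 107 in wild type and 102 to 113 in knockout. Of the 5 adipocyte genes, 3 were lower in every knockout pool, Plin1 at −0.81 ± 0.26 (SE), Cidec at −0.73 ± 0.23 and Lipe at −0.49 ± 0.17, and Adipoq lay at 0.02 ± 0.13. Their median was −0.49, and their sum was 3.87 to 4.58 in wild type and 4.01 to 4.47 in knockout. Hair cell genes had a median of 0.08, with Ocm at 0.33 ± 0.12 (SE) and Slc26a5 at 0.92 ± 0.24 higher in every knockout pool and Myo7a at 0.03 ± 0.09. These counts stand beside 7.86% of all probes without overlap on the higher side and 4.42% on the lower. Of all probes 59.7% lay above 0. The part of these cell types in the differences of the clock genes was not tested.

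The pools were then compared for likeness to Dbp over the 6 arrays, with the difference between genotypes left in. Pearson's r with the brightest Dbp probe was 0.98 for Tef (Spearman's rho 0.94), 0.94 for Bhlhe40 (0.83), 0.85 for Bhlhe41 (0.60), 0.75 for Hlf (0.71), −0.81 for Nfil3 (−0.71) and −0.26 for Rora (−0.60). These 6 relations name the same measure as the choice of the list, share their 6 RNA pools and arrays, and are given without a p. An r of at least 0.9, reached by Tef and Bhlhe40, was found in 1.76% of all other probes. The second Bhlhe41 probe also reached it, at 0.93 against 0.85 for the brighter. An r of −0.8 or below, reached by Nfil3, was found in 2.34%. Without the pools farthest from the median of Dbp, wild-type 2 and knockout 3, r was 0.97 for Tef and 0.93 for Bhlhe40, 0.69 for Bhlhe41, 0.62 for Hlf, −0.41 for Nfil3 and −0.54 for Rora. The r of Nfil3 was thus weaker over the middle pools. It was −0.73 without knockout pool 3 alone and −0.94 without knockout pool 1. Without wild-type pool 2 alone, r fell to 0.28 for Hlf and was −0.64 for Nfil3. For Rora it was −0.58 without wild-type pool 2, −0.61 without wild-type pool 1, −0.12 without knockout pool 2 and −0.16 without knockout pool 3. With any 1 pool left out, Tef stayed at 0.98 to 0.996 and Bhlhe40 at 0.86 to 0.98.

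**Figure D3:**
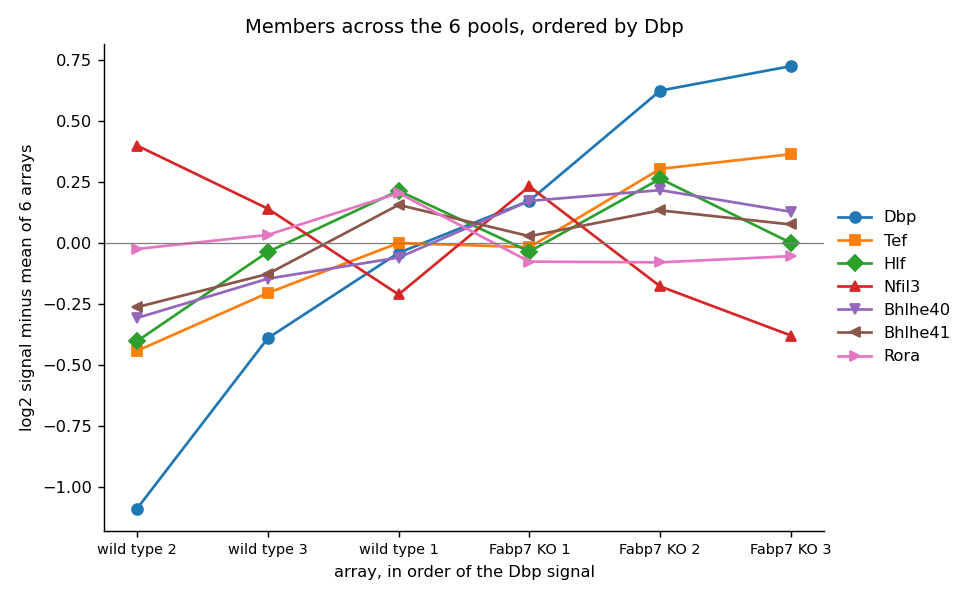
Log2 signal of the 7 genes past the filter on each array minus the gene's mean over the 6 arrays, with the arrays in order of Dbp. Tef climbs with Dbp but for a slight dip at knockout pool 1, and Bhlhe40 climbs up to knockout pool 2 and falls at pool 3. The Nfil3 line falls over the wild-type pools, steps up at knockout pool 1 and falls again.

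Because genotype itself orders the pools by Dbp, r was also taken over deviations from the genotype means, which leaves 3 pools a group around their own mean. It was 0.96 for Tef, 0.87 for Hlf, 0.87 for Bhlhe41, 0.80 for Bhlhe40 and −0.93 for Nfil3. Dbp ranged over 1.05 in the wild-type pools and 0.55 in the knockout pools, so these values lean on wild type. Among the knockout pools Bhlhe40 was lowest in pool 3, where Dbp was highest. Rora changed sign, from −0.26 over all pools to 0.81 within genotypes. Its wild-type pools ranked as for Dbp, while its knockout pools spanned only 0.03, with pool 2 lowest. Tef and Nfil3 mirrored each other in the same way, at −0.99 within genotypes and −0.88 over all pools. Hlf and Bhlhe41 ran closely together, at 0.92 both within genotypes and over all pools.

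**Figure D4:**
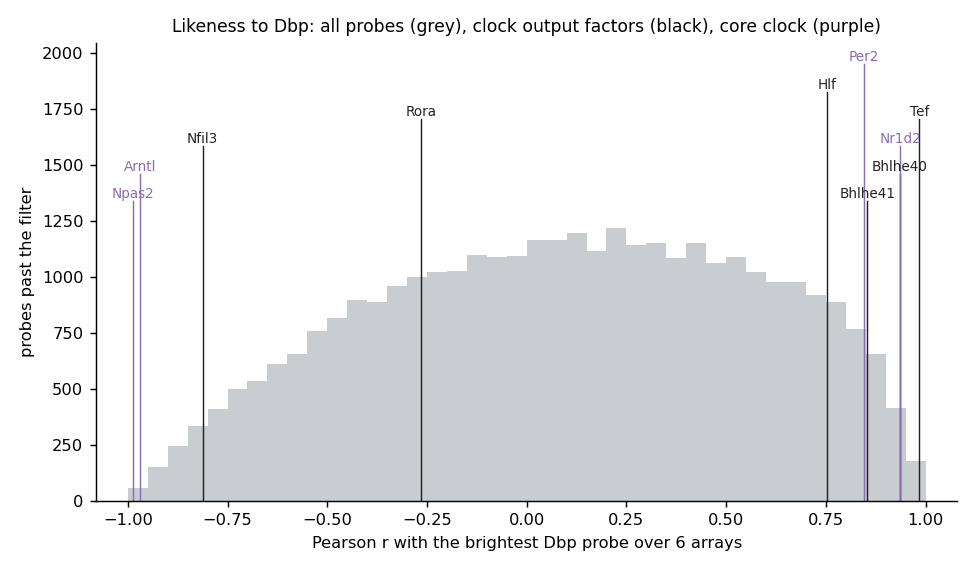
Number of probes past the filter at each Pearson r with the brightest Dbp probe over the 6 arrays (grey), with the other 6 clock output factors in black and 4 core clock genes in purple. Tef stands at 0.98 and Bhlhe40 at 0.94, Nfil3 at −0.81, and Arntl and Npas2 at −0.97 and −0.99. The Npas2 signals were dim, at percentiles 39.2 to 47.2 of the arrays.

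Among 3076 other named genes with an SD of at least 0.25 over the arrays, the 6 most like Dbp were Rpp25, a subunit of the RNA-processing ribonucleases P and MRP (r = 0.996, rho 1), the deubiquitinase Usp2 (0.98, 0.94), the unclassified transcript D230030E09Rik (0.98, 1), the synaptic protein gene Prr7 (0.97, 1), the D-aspartate oxidase gene Ddo (0.97, 1) and the actin adaptor gene Sorbs2 (0.97, 0.89). The 6 that ran most strongly against it were Trim29 (−0.99, −0.94), Npas2 (−0.99, −1), the paralogs C2cd4b (−0.99, −1) and C2cd4a (−0.97, −1), Arntl (−0.97, −0.94) and Rtp3 (−0.97, −0.94). Usp2, Npas2 and Arntl are known clock or clock-driven genes in mouse. Usp2 read 1.66, 1.30 and 1.51 in wild type against 1.84, 2.05 and 1.97 in knockout, without overlap. Npas2 read −4.58, −4.07 and −4.49 against −4.71, −5.01 and −5.19, the exact reverse order of Dbp. Its signals were dim, at percentiles 39.2 to 47.2 of the arrays, a range that overlaps that of Ciart. Its difference and its r with Dbp carry that limit. Knockout pool 3 lay just under the 40th percentile. Rtp3 was above that level on 4 of 6 arrays.

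Of the core clock, 9 of the 10 genes on the array passed the filter, with Cry1 below it. The 6 above 0 were Per3 (0.84 ± 0.17, SE), Per2 (0.74 ± 0.12), Per1 (0.42 ± 0.27), Nr1d1 (0.39 ± 0.27), Nr1d2 (0.33 ± 0.18) and Cry2 (0.23 ± 0.13), and below 0 lay Clock (−0.04 ± 0.12), Arntl (−0.45 ± 0.16) and Npas2 (−0.59 ± 0.18). Their median was 0.33 against 0.03 for all probes, of which 59.7% lay above 0. Of the 9 genes, 0 passed the adjusted threshold. The groups did not overlap in 2 higher and 1 lower, beside 7.86% and 4.42% of all probes. The 1 lower was Npas2, whose signals were dim, as given above. The r of Per2 with Dbp was 0.37 within genotypes and 0.85 over all pools, and that of Nr1d1 0.94 and 0.88. Nr1d1, the REV-ERB repressor that competes with Rora at ROR elements, read 1.22, 0.41 and 0.87 in wild type against 0.82, 1.24 and 1.61 in knockout, with overlap.

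Other genes known to cycle in many mouse organs passed the filter in 11 of 12 cases. Of these, 7 lay above 0 and 4 below, beside 59.7% of all probes above 0. Their median was 0.23, with no overlap in 5 higher and 0 lower, beside the same 7.86% and 4.42%. Usp2 differed by 0.46 ± 0.12 (SE), Tspan4, a tetraspanin, by 0.35 ± 0.07 and Tsc22d3, the glucocorticoid-induced leucine zipper, by 0.30 ± 0.07. Genes driven through ROR elements include Fabp7 itself, the deleted gene, which passed the filter by its 3 wild-type arrays alone and is left out of the count. Of the other 5 that passed, 4 lay below 0, namely Npas2, Arntl, Clock and Nfil3, given above, and E2f8, a cell cycle repressor, was at 0.01 ± 0.21 (SE). Their median was −0.22, and −0.33 with Fabp7 (−8.42 ± 0.47). Paralogs and modifiers of the clock split evenly, 5 above and 5 below with a median of 0.03, among them Csnk1e, a PER kinase (−0.19 ± 0.09), the E3 ligase adaptor Btrc (0.14 ± 0.07) and Arntl2 (0.14 ± 0.13).

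Glucocorticoid targets share Per1, Tsc22d3 and Cdkn1a with the lists above. They lay above 0 in 9 of 11 genes with a median of 0.12, beside 59.7% and 0.03 for all probes. Their summed signal, in multiples of each array's 75th percentile, ran from 319.75 to 348.33 in wild type and from 337.54 to 380.57 in knockout. Most of that sum came from Mt1, Mt2 and Lcn2, so it says little about the other targets. Fkbp5, a glucocorticoid receptor co-chaperone gene, was at 0.12 ± 0.16 (SE) and Zbtb16 at 0.22 ± 0.27. Immediate early genes lay below 0 in 8 of 10 with a median of −0.11, including Ier2 (−0.47 ± 0.30), Fos (−0.39 ± 0.12) and Junb (−0.30 ± 0.15). Their summed signal was 15.2 to 17.7 in wild type and 14.1 to 18.7 in knockout. In none of these lists did a gene pass the adjusted threshold, and the part of either list in the Dbp values was not tested.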

How the data were processed

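Total RNA was labelled with Cy3, per the labels, and arrays were read with Agilent Feature Extraction 10.7, per the submitters' processing notes. The authors deposited, for each array, an unscaled raw signal intensity of every probe, and a matrix of log2 values that equalled log2 raw signal minus a constant per array, to within 1e-05. How background was treated is not stated, and the files carry no detection or saturation marks, slide or scan. Groups came from the sample titles, with 3 arrays each, a number that limits the precision. Gene names came from the platform annotation (30625 probes with 1 symbol, 25051 with none, 0 with several).

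Log2 raw signal minus the array's 75th percentile was fitted with limma 3.58.1 in R 4.3.3 (lmFit, eBayes, no covariates) on all 33484 probes past the filter, and the fit was tested on simulated data. For a gene with several probes the one with the highest mean stood first. All members and their probes are named. Genes like Dbp were the 6 highest and 6 lowest by r, and other lists give up to 3 genes of largest difference, or every core clock gene; Fkbp5, E2f8, Acta1, Pvalb, Adipoq, Myo7a and the stria genes were added after their values were seen. The members and lists were chosen with earlier results of these data known. Alternatives covered scaling, filter, probe choice, variance model, replicate number and each array left out. Same-numbered pools deviated at r of −0.14, −0.04 and −0.16, which gives no sign that the numbers pair the samples but cannot exclude it. The markers of red cell precursors and neutrophils had a median knockout minus wild type of 0.07 and 0.10, with 5 of 5 and 7 of 7 genes on the array past the filter.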

Additional observations from a re-analysis of the deposited data

How the results depend on the processing

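Over 16 other settings, the knockout minus wild type differences of Dbp (0.72 to 1.24), Tef (0.32 to 0.55), Bhlhe40 (0.28 to 0.40), Bhlhe41 (0.06 to 0.27), Nfil3 (−0.39 to −0.07) and Rora (−0.19 to −0.07) kept their direction, and no adjusted p of a member fell under 0.05. Hlf ran from −0.013, a reversal without wild-type pool 2, to 0.30 without wild-type pool 1. The correlation of Rora with Dbp reversed to 0.81 over deviations from the genotype means. The cause of either was not tested. Probes past the adjusted threshold numbered 0, against 2 with quantile normalization, 1 with a trended robust variance, 4 with array weights, 1 with dim signals raised to the 40th percentile, and 0 to 2 with an array left out. Probes at an unadjusted p under 0.05 numbered 1942, 4691 with array weights, which lean on knockout pool 2 (3.08) and wild-type pool 3 (2.14) against 0.41 to 0.91 on the others, and 1349 to 2868 with an array left out. Members without overlap numbered 3, beside 7.86% of all probes higher and 4.42% lower. With an array left out they numbered 3 to 6, beside 11.3 to 17.7% higher and 6.54 to 10.6% lower. The 6 came without wild-type pool 1, beside 17.5% and 9.35%. With the replicate number as a block (replicate block), 0 probes passed the adjusted threshold and 1465 the unadjusted one, and no call on a member changed. Planned fits with normexp, and with slide or scan as a term, were not run, since the files hold neither. Signal over background is not marked in the files, which limits Ciart most.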
